A study of Mus musculus with 3 samples.

Results

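In mouse visceral fat, 74 of 10603 measured genes (0.698%) stood apart on the high-fat diet and had an opposite difference under rapamycin. Of these, 64 (0.604%) were at least 1.5-fold higher on HFD-Vehicle than on both LFD-Vehicle and HFD-Rapamycin, and 10 (0.0943%) were at least 1.5-fold lower than on both. They were chosen from the authors' normalized intensities. A probe was kept where its detection p was below 0.01 on 1 or more arrays, a gene was read from its kept probe of highest mean, and both differences had to reach 1.5-fold with opposite signs. Genes whose symbols start with Hox, Ifi, Oas, Isg or Cxcl, and En1 and Rsad2, were set aside by name, and 3 genes that passed the thresholds (Hoxc10, En1 and Rsad2, all high on HFD-Vehicle) were left out for that reason. Of all genes, 15.6% were at least 1.5-fold apart between HFD-Vehicle and LFD-Vehicle (9.19% higher and 6.4% lower on HFD-Vehicle) and 8.4% between HFD-Rapamycin and HFD-Vehicle (4.29% higher and 4.11% lower on HFD-Rapamycin). Since these same differences chose the genes, all of them had to pass, and the levels below are a description with no test.

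The study gave rapamycin, an inhibitor of the kinase mTOR, to mice made obese by diet, and measured RNA of the perigonadal fat on Illumina mouse bead arrays. LFD-Vehicle mice were lean mice on the control diet, which the labels call a low-fat diet and the study's text a regular chow. Their label also names vehicle, and whether they were injected is not clear from the study's text. HFD-Vehicle mice were obese and received the carrier alone each week for 22 weeks with the high-fat diet. HFD-Rapamycin mice received weekly rapamycin for 22 weeks with the same high-fat diet. All mice were C57BL/6JRj, given as 28 weeks old. RNA of several mice was pooled for each group and 1 array was hybridized per pool, so no difference has a replicate check. Mice of both sexes entered the study, and which sexes went into a pool was not stated in the material used here.

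Fat tissue that takes up excess energy enlarges its adipocytes and remodels its vessels, matrix and mesothelial cover, and some adipocyte genes, such as Mest, track the rate of this expansion in mice. mTOR complex 1 couples nutrients and insulin to growth and lipid synthesis, and rapamycin inhibits it. Whole tissue also holds blood, and red cells and their young forms bring their own RNA, which codes for globins and for heme and membrane proteins.

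The arrays were of similar depth: 16951 to 17966 of 45281 probes (37.4% to 39.7%) were detected. The median difference over all genes was -0.04 on the log2 scale between HFD-Vehicle and LFD-Vehicle and 0.01 between HFD-Rapamycin and HFD-Vehicle. By any amount, 4807 of the 10603 genes were higher and 5796 lower on HFD-Vehicle than on LFD-Vehicle. On HFD-Rapamycin 5564 were higher and 5039 lower than on HFD-Vehicle. Counts of higher or lower genes in the lists below stand beside these. Adipoq, the adipocyte hormone adiponectin, had log2 intensities of 14.06, 13.86 and 13.41 in that order of LFD-Vehicle, HFD-Vehicle and HFD-Rapamycin, and the same order is used below. Both differences of a gene share the HFD-Vehicle array, so an error in that value alone would give a gene opposite signs, and with 1 array this cannot be told apart from an effect of diet and drug. For comparison, the differences of different probes for the same gene had an SD of 0.24 for the diet and 0.16 for the drug. In whole tissue, fewer cells of a type and less RNA per cell cannot be told apart.

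**Figure D1:**
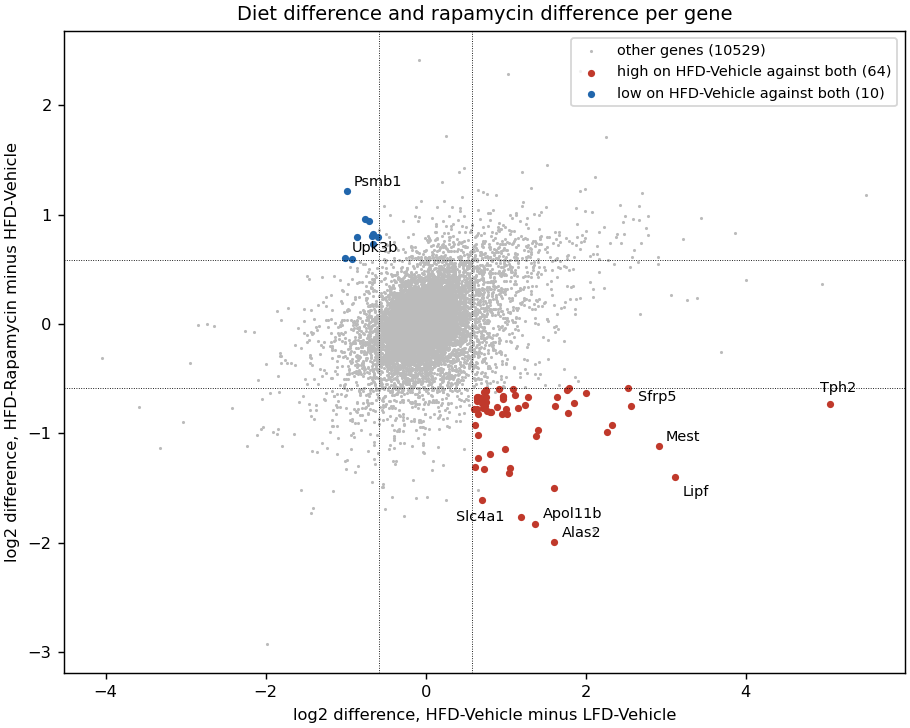
Each point is 1 gene, with the log2 difference of HFD-Vehicle minus LFD-Vehicle on the x axis and of HFD-Rapamycin minus HFD-Vehicle on the y axis. Dotted lines mark 1.5-fold, the 64 genes high on HFD-Vehicle are red, the 10 low ones blue, the other genes grey, and Tph2 lies farthest to the right among the coloured points.

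Of all members, Alas2 had the largest opposite differences, judged by the smaller of its differences. A further 4 members have a known role in the red cell lineage, a grouping made after the values were seen. Alas2, the enzyme that starts heme synthesis in red cell precursors, had log2 intensities of 9.71 on LFD-Vehicle, 11.32 on HFD-Vehicle and 9.33 on HFD-Rapamycin. It was 3.05-fold higher on HFD-Vehicle than on LFD-Vehicle and 3.98-fold higher than on HFD-Rapamycin, which lay below LFD-Vehicle. Slc4a1, the anion exchanger band 3 of the red cell membrane, stood at 7.84, 9.03 and 7.26, or 2.28-fold and 3.41-fold higher on HFD-Vehicle. Tfr2, a transferrin receptor that senses iron, stood at 6.86, 7.92 and 6.60, with folds of 2.08 and 2.50. Its second kept probe, detected on at least 1 array, ran the same way, by 0.53 and -0.58 on the log2 scale. In each of these 3 genes HFD-Rapamycin had the lowest value.

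The smaller differences of Slc25a37 and Trim10 were nearer to the threshold. Slc25a37, the iron carrier mitoferrin of the mitochondrial membrane, stood at 8.15, 9.31 and 8.54 and kept part of its diet difference. Trim10, a ubiquitin ligase of maturing red cells, stood at 6.21, 6.82 and 6.05, was detected on HFD-Vehicle alone and was at least 1.29-fold and 1.35-fold higher there than on LFD-Vehicle and HFD-Rapamycin. With undetected values at the lowest detected value of their array, Trim10 did not reach 1.5-fold.

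Of the 6 measured genes in a list of red cell markers, Alas2 and Slc4a1 were members, beside 0.698% of all genes. In the list, 5 were higher on HFD-Vehicle than on LFD-Vehicle and all 6 were lower on HFD-Rapamycin than on HFD-Vehicle. The list medians were 0.26 and -0.95 on the log2 scale, with Alas2 and Slc4a1 included, which were chosen for these differences. The others were globin genes. Hba-a1, Hbb-b2, Hbb-bs and Hbb-bt had diet differences of 0.31, 0.22, -0.01 and 0.01. Their drug differences were -0.61, -1.29, -0.42 and -0.52. Globin mRNA showed a smaller diet difference than Alas2 and Slc4a1. The 12 globin probes read these same globin genes, mostly Hbb-bs and Hbb-bt, and are not separate genes. Of them, 11 were higher on HFD-Vehicle than on LFD-Vehicle, and the median diet difference of the 12 was 0.37. All 12 were lower on HFD-Rapamycin than on HFD-Vehicle, with a median difference of -0.82. The range was -0.01 to 0.84 for the diet and -1.29 to -0.42 for the drug. Hba-a1, an alpha globin, stood at 14.31, 14.62 and 14.01. The Hbb-bs and Hbb-bt probes share nearly identical sequence. The brightest ones lie near the top of the scale, where differences may be compressed, which was not tested. Hbb-b2, the dimmest probe at 8.02 on LFD-Vehicle, had a diet difference of 0.22. The summed intensity of the 6 list genes was 72457, 79392 and 54189, none was undetected, and the part of blood content in the levels of the red cell members was not tested.

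Stretches of the RefSeq promoters of Alas2 and Trim10 (GRCm38.p6) are shown because both genes belong to this lineage and hold the letters AGATAA, which GATA factors bind, on the opposite strand as TTATCT (in capitals). The Alas2 stretch is chrX:150547267-150547386, plus strand, and the Trim10 stretch is chr17:36869374-36869493, plus strand, both upstream of the start.
Alas2: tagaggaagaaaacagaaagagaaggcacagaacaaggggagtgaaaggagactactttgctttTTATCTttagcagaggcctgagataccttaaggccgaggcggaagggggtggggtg
Trim10: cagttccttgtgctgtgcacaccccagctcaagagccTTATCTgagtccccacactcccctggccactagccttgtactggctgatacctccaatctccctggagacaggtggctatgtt
The match lies 86 bases before the start of Alas2 and 163 before that of Trim10. AGATAA on either strand was found in 9 of 70 promoters of the genes high on HFD-Vehicle (12.9%), beside 11.2% of all 32851 promoters, each of 250 bases before to 50 after a start. The Tfr2 promoters did not hold it, and no promoter of Slc4a1 or Slc25a37 was searched. The letters CCACACCC, a CACC box bound by factors of the KLF family, were in 6 of these 70 promoters (8.57%) and in 3.56% of all. One match lay 22 bases before a start of Tfr2. The others were in C130026I21Rik, Slc6a13, Bcat1, Peg3 and Unc79, outside the red cell members. Of 8 promoters of the genes low on HFD-Vehicle, 2 held AGATAA and 1 held CCACACCC. These 2 motifs were added after the members were known, and a match is a description of the letters.

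**Figure D2:**
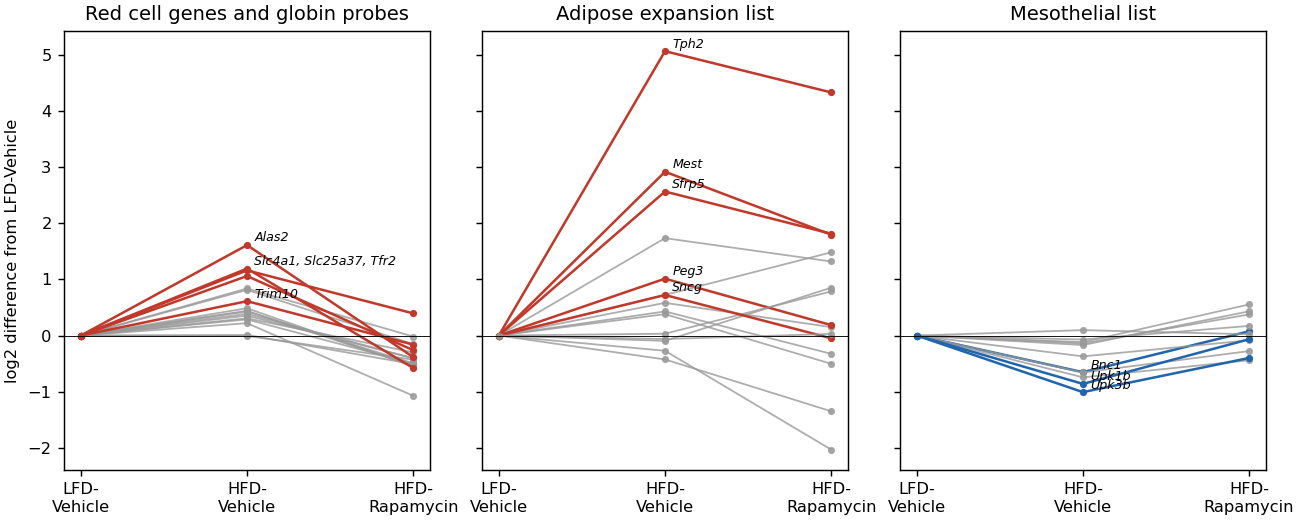
Lines give the log2 difference from LFD-Vehicle on the 3 arrays. The left panel shows 5 red cell members (red) and 12 globin probes (grey), the middle panel the adipose expansion list and the right panel the mesothelial list, with members in colour and the other measured genes in grey. Red cell members peak on HFD-Vehicle, Tph2 stays far above LFD-Vehicle, and the mesothelial members dip on HFD-Vehicle.

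In a list of adipose expansion genes, 5 of 15 measured genes were members, all high on HFD-Vehicle, beside 0.698% of all genes. The list was written with earlier results of these data known and holds Tph2, which is better known from neurons, so the count is not independent of these arrays. Mest, an imprinted gene of the alpha/beta hydrolase fold family, had log2 intensities of 9.15 on LFD-Vehicle, 12.06 on HFD-Vehicle and 10.94 on HFD-Rapamycin. It was 7.54-fold higher on HFD-Vehicle than on LFD-Vehicle and 2.17-fold higher than on HFD-Rapamycin, which stayed 1.79 above LFD-Vehicle on the log2 scale. All 3 Mest probes passed both thresholds, with diet differences of 2.20 to 2.91 and drug differences of -1.12 to -0.94. Peg3, another imprinted gene and a zinc finger protein, stood at 7.17, 8.18 and 7.36, and HFD-Rapamycin lay close to LFD-Vehicle. Its second detected probe ran the same way by 0.37 and -0.36, under the threshold.

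Sfrp5, a secreted inhibitor of Wnt ligands, stood at 7.17, 9.74 and 8.99, 5.91-fold higher on HFD-Vehicle than on LFD-Vehicle and 1.68-fold higher than on HFD-Rapamycin. Tph2, tryptophan hydroxylase of serotonin synthesis, stood at 6.60, 11.66 and 10.93. Its diet difference was the largest among the members, 33.4-fold, and HFD-Rapamycin was lower than HFD-Vehicle by 1.66-fold. On the log2 scale, on which all such shares are given here, 14.5% of the diet difference was returned. Sncg, gamma-synuclein, which is abundant in adipocytes, stood at 12.11, 12.83 and 12.06, with HFD-Rapamycin at the LFD-Vehicle level. Among these 5 members, Sncg and Peg3 lay near LFD-Vehicle under rapamycin while Mest, Sfrp5 and Tph2 stayed high.

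The other 10 measured genes of this list did not move as one. Their diet differences ranged from -0.43 to 1.73 and their drug differences from -1.76 to 0.95, and 4 of them were higher on HFD-Vehicle and then lower on HFD-Rapamycin without reaching the threshold in both. Bmp3, a secreted BMP family factor, was among these at 8.72, 10.46 and 10.04. Sfrp2, another Wnt inhibitor, was higher in both steps at 7.63, 8.35 and 9.11. The medians of these 10 genes were 0.21 for the diet and -0.42 for the drug, beside -0.04 and 0.01 over all genes. With the 5 members, which were chosen for these differences, the list medians were 0.58 and -0.75. Adipocyte marker genes were lower on HFD-Rapamycin as well: 13 of 14 were below HFD-Vehicle, with a median difference of -0.78, while their median diet difference was -0.28. The summed intensity of the adipocyte markers was 118731, 98830 and 71117, and its part in the drug differences of the expansion genes was not tested.

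The promoters of Peg3 and Sfrp5 are shown as examples of expansion genes with a match to a searched motif, in stretches upstream of the start. Tph2 also held AGATAA, 128 bases before its start. The Peg3 stretch is chr7:6730530-6730649, minus strand, with the cAMP response element TGACGTCA in capitals, and the Sfrp5 stretch is chr19:42202403-42202502, minus strand, with AGATAA in capitals.
Peg3: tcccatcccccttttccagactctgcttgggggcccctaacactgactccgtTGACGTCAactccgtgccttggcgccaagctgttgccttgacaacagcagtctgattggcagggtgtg
Sfrp5: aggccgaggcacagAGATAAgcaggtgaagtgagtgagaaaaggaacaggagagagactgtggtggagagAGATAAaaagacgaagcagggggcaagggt
TGACGTCA was found in 1 of 70 promoters of the genes high on HFD-Vehicle (1.43%), that of Peg3, and in 1.79% of all promoters. Sfrp5 lies 2 protein-coding genes away from Crtac1 in the RefSeq order (GRCm38.p6). Crtac1, a secreted protein of cartilage, stood at 7.10, 8.89 and 8.31 and was also a member.

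Genes of lipid handling gave 3 members. Lipf, gastric lipase, stood at 6.71 on LFD-Vehicle, 9.83 on HFD-Vehicle and 8.44 on HFD-Rapamycin, or 8.69-fold and 2.63-fold higher on HFD-Vehicle, and HFD-Rapamycin kept a difference of 1.72 on the log2 scale from LFD-Vehicle. Apol11b, of the apolipoprotein L family, stood at 7.19, 8.57 and 6.74, with HFD-Rapamycin the lowest, 3.54-fold under HFD-Vehicle. Vldlr, the receptor for very low density lipoprotein, stood at 10.71, 11.42 and 10.69, and all 5 of its detected probes ran the same way. Apol11b and Vldlr were the members among 19 measured genes of lipid uptake and efflux, beside 0.698% of all genes. Of the 19, 8 were at least 1.5-fold higher on HFD-Vehicle than on LFD-Vehicle, beside 9.19% of all genes.

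The Apol11b promoter is shown because it holds, 50 bases before the start, a match to the interferon-stimulated response element (in capitals). The stretch is chr15:77643287-77643406, minus strand, GRCm38.p6.
Apol11b: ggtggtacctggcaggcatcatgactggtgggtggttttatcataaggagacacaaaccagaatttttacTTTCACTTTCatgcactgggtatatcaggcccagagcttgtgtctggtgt
The element, on either strand, was found in 2 of 70 promoters of the genes high on HFD-Vehicle (2.86%), beside 3.44% of all promoters. The interferon gene Rsad2, set aside by name, stood at 8.91, 9.56 and 8.04, also lowest on HFD-Rapamycin. The gamma-activated site TTCNNNGAA was found in 4.29% of the promoters of genes high on HFD-Vehicle and in 8.30% of all. A direct repeat of AGGTCA spaced by 1 base, bound by PPAR and RXR pairs, was in none of theirs. It was in only 13 of all 32851 promoters (0.0396%), so none was likely among 70.

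Of amino acid handling, Bcat1, the cytosolic aminotransferase of branched-chain amino acids, stood at 7.0, 9.26 and 8.27. It was 4.80-fold higher on HFD-Vehicle than on LFD-Vehicle. Of 17 measured genes of branched-chain amino acid breakdown, Bcat1 alone was at least 1.5-fold higher, while 7 were at least 1.5-fold lower. Of all genes, 9.19% were at least 1.5-fold higher and 6.4% lower. On HFD-Rapamycin all 17 were lower than on HFD-Vehicle, 10 of them at least 1.5-fold, with a median of -0.81. HFD-Rapamycin lay 43.6% of the way back to LFD-Vehicle on the log2 scale for Bcat1. Gldc, glycine decarboxylase of the glycine cleavage system, stood at 7.90, 8.95 and 7.59, with both detected probes past the thresholds. Slc6a13, a transporter of GABA and taurine, stood at 9.73, 10.53 and 9.72, so that HFD-Rapamycin matched LFD-Vehicle.

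12 members were receptors or signalling proteins. Ret, the receptor tyrosine kinase for GDNF family ligands, stood at 7.69 on LFD-Vehicle, 9.09 on HFD-Vehicle and 8.12 on HFD-Rapamycin, 2.65-fold and 1.96-fold higher on HFD-Vehicle, and both detected probes passed. Il13ra2, a decoy receptor for interleukin 13, stood at 5.90, 7.28 and 6.26, was detected on HFD-Vehicle alone and was at least 1.77-fold and 1.85-fold higher there. Plch2, a phospholipase C, stood at 6.30, 7.29 and 6.15 and was likewise detected on HFD-Vehicle alone, with bounds of at least 1.78-fold and 1.86-fold. On LFD-Vehicle and HFD-Rapamycin neither was detected, so their values there cannot be told from background.

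2 members curb insulin or mTOR signalling, out of 31 measured genes in that list, beside 0.698% of all genes. Of the 31, 4 were at least 1.5-fold higher and 5 lower on HFD-Vehicle than on LFD-Vehicle, with a median diet difference of -0.10. Grb14, an adaptor that inhibits the insulin receptor, stood at 7.55, 9.40 and 8.68 and was 3.61-fold higher on HFD-Vehicle than on LFD-Vehicle and 1.65-fold higher than on HFD-Rapamycin. Ddit4, which restrains mTOR complex 1 under stress, stood at 7.13, 7.90 and 7.10, with HFD-Rapamycin at the LFD-Vehicle level. Ramp2, the partner of the adrenomedullin receptor in vessels, stood at 9.64, 10.45 and 9.65. Of 17 measured endothelial markers, Ramp2 alone was at least 1.5-fold higher on HFD-Vehicle than on LFD-Vehicle, beside 9.19% of all genes. All 17 were lower on HFD-Rapamycin than on HFD-Vehicle, with a median of -0.70. The summed intensity of the endothelial markers was 9815, 9413 and 6066, and its part in the Ramp2 difference was not tested.

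The other receptors and signalling proteins were a mix of bright and dim genes. Bcar3, an adaptor of integrin signalling, stood at 7.38, 9.0 and 8.25 and Paqr9, of the progestin and adipoQ receptor family, at 10.15, 11.80 and 11.13, and both stayed over 1.5-fold above LFD-Vehicle under rapamycin. Rasl12, a Ras-like GTPase, stood at 10.53, 11.34 and 10.15, and Itga7, the laminin receptor integrin alpha 7, at 9.29, 9.94 and 9.26. Lpar3, a lysophosphatidic acid receptor, and Dusp15, a phosphatase, were dim at 6.37, 7.03 and 6.22 and at 6.46, 7.42 and 6.74. Across the 12 genes the diet difference ranged from 0.65 to 1.85 and the drug difference from -1.19 to -0.67.

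**Figure D3:**
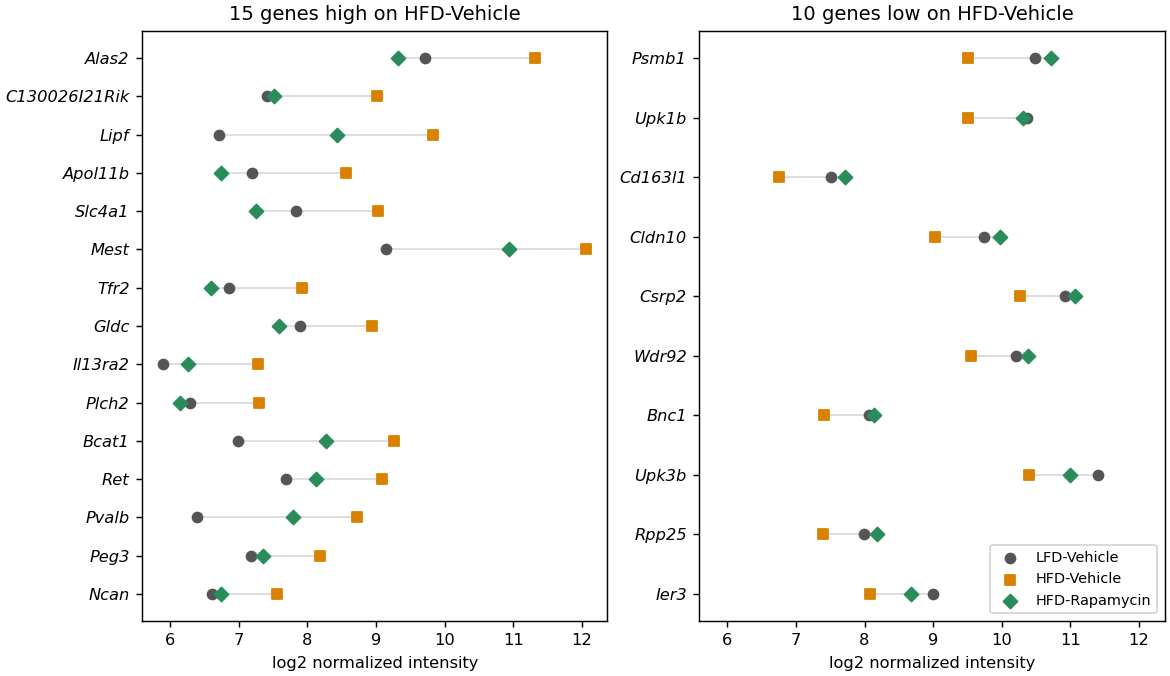
Points give the log2 normalized intensity on the LFD-Vehicle (grey circles), HFD-Vehicle (orange squares) and HFD-Rapamycin (green diamonds) arrays, 1 array each, for the 15 high members with the largest smaller difference and for all 10 low members. HFD-Vehicle lies at 1 end in every row, and for Lipf, Mest, Bcat1 and Pvalb the HFD-Rapamycin point stays well right of LFD-Vehicle.

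8 members were ion channels, their partners or calcium binding proteins. Pvalb, the calcium buffer parvalbumin, stood at 6.39 on LFD-Vehicle, 8.72 on HFD-Vehicle and 7.80 on HFD-Rapamycin and was not detected on LFD-Vehicle, so that HFD-Vehicle was at least 4.80-fold higher. Pvalb is abundant in fast muscle fibers of mice. Of 8 measured skeletal muscle markers, Pvalb alone was at least 1.5-fold higher on HFD-Vehicle than on LFD-Vehicle, beside 9.19% of all genes. The list median was -0.52 for the diet. Kcnj14, a potassium channel, stood at 6.22, 8.23 and 7.60, with HFD-Vehicle at least 3.41-fold above LFD-Vehicle.

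Fgf13, an intracellular partner of sodium channels, stood at 8.87, 11.41 and 10.82, 5.79-fold higher on HFD-Vehicle than on LFD-Vehicle. HFD-Rapamycin lay 23.2% of the way back on the log2 scale. Kcne1l, a potassium channel subunit, stood at 7.80, 8.50 and 6.89 and went farthest past LFD-Vehicle, to 0.91 below it on the log2 scale. Kcnh2, Ryr2, Unc79 and Gsg1l code for a potassium channel, a calcium release channel, a subunit of the sodium leak channel and a partner of glutamate receptors. Their levels were low: 6.67, 7.68 and 6.90 for Kcnh2, 6.07, 7.16 and 6.56 for Ryr2, 6.63, 7.59 and 6.94 for Unc79 and 6.08, 6.80 and 6.18 for Gsg1l.

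9 members code for secreted, matrix or cell surface proteins. Ccl11, the eosinophil chemokine eotaxin, stood at 9.96 on LFD-Vehicle, 10.70 on HFD-Vehicle and 9.99 on HFD-Rapamycin, and its second probe differed by 0.88 and -0.57. It was the only member among 36 measured chemokines and receptors, beside 0.698% of all genes, and the Cxcl symbols had been set aside. Of the 36, 12 were at least 1.5-fold higher on HFD-Vehicle than on LFD-Vehicle, beside 9.19% of all genes. Ccdc3, a protein secreted by vessel wall and fat cells, stood at 10.17, 11.96 and 11.14 and Dpt, the matrix protein dermatopontin, at 10.69, 11.97 and 11.30, and both stayed above LFD-Vehicle. Sod3, the extracellular superoxide dismutase, stood at 9.87, 10.52 and 9.51 and Mme, the surface peptidase neprilysin, at 9.0, 9.73 and 8.40, both lowest on HFD-Rapamycin. Ncan, the proteoglycan neurocan, stood at 6.61, 7.56 and 6.74. The gut and brain peptide Cck and the BPI family member Bpifb6 were detected on HFD-Vehicle alone, at 6.92 and 6.93. Their bounds over LFD-Vehicle and HFD-Rapamycin were under 1.5-fold: at least 1.37-fold and 1.44-fold for Cck, and 1.39-fold and 1.45-fold for Bpifb6.

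Of 3 histone genes, H2ac19 stood at 10.72, 11.33 and 10.03, 0.69 under LFD-Vehicle with rapamycin, H3c6 at 7.98, 9.22 and 8.48 and H2bc21 at 7.35, 8.46 and 7.81. These genes have near-identical copies, so their probes may not separate them, and a second detected probe for H2bc21 read 8.01, 7.71 and 7.83, the opposite way. H2bc21 and H2ac19 lie 2 protein-coding genes apart. Other nuclear proteins and their partners were Cux2, a homeobox factor, Poln, a DNA polymerase, Mycbp2, a ubiquitin ligase, and Tceal5, with diet differences of 0.70 to 0.97. Members of the cytoskeleton, of cell junctions and of vesicle traffic were Dst, Pkp1, Mpdz, Tekt1, Rab11fip4, Dnajc6 and Tanc1, with diet differences of 0.62 to 0.92 and drug differences of -0.92 to -0.59. One of the 3 other detected Dst probes did not follow, with -0.07 and -0.06.

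5 high members had no role that groups them. C130026I21Rik, which has no described role given here, stood at 7.41 on LFD-Vehicle, 9.02 on HFD-Vehicle and 7.52 on HFD-Rapamycin with folds of 3.05 and 2.82, and both its detected probes passed. C730029A08Rik stood at 7.90, 9.67 and 9.06 and ND4L, a mitochondrial subunit of respiratory complex I, at 10.07, 10.73 and 9.50. Tmem200b, a membrane protein, had a diet difference of 0.64 and a drug difference of -0.71, and Vat1l stood at 6.93, 7.69 and 7.09.

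The 10 genes low on HFD-Vehicle included 3 mesothelial genes, of the cell layer that covers visceral fat. Upk3b, a uroplakin, had log2 intensities of 11.40 on LFD-Vehicle, 10.39 on HFD-Vehicle and 11.00 on HFD-Rapamycin, 2.01-fold lower on HFD-Vehicle than on LFD-Vehicle and 1.52-fold higher again on HFD-Rapamycin. Its 2 other probes ran the same way, by -0.94 and -0.89 for the diet and by 0.52 and 0.58 for the drug, the latter just under 1.5-fold. Upk1b, a second uroplakin, stood at 10.37, 9.51 and 10.31, and Bnc1, the zinc finger factor basonuclin, at 8.06, 7.41 and 8.14, and both lay close to LFD-Vehicle with rapamycin.

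The mesothelial list as a whole ran the same way: 10 of 11 measured genes were lower on HFD-Vehicle than on LFD-Vehicle and 10 of 11 were higher on HFD-Rapamycin than on HFD-Vehicle, with medians of -0.37 and 0.51. Among the 8 that were not members the medians were -0.15 and 0.34. Msln, mesothelin, the defining marker, stood at 7.46, 7.30 and 7.90. The summed intensity of the list was 6416, 4180 and 5867, and the share of mesothelial cells in each pool was not measured, so its part in the levels of Upk3b, Upk1b and Bnc1 was not tested.

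Psmb1, a subunit of the proteasome core, had the largest opposite differences of the low genes, at 10.49 on LFD-Vehicle, 9.50 on HFD-Vehicle and 10.71 on HFD-Rapamycin, 1.98-fold lower and 2.32-fold higher again. The 10 other measured genes of the core, a list chosen after the values were seen, had diet differences between -0.25 and 0.19 and drug differences between -0.14 and 0.35. Psmb1 has 1 probe on the array. Cldn10, a tight junction claudin, stood at 9.74, 9.03 and 9.98, and all 3 of its detected probes passed both thresholds. Csrp2, a LIM domain protein of smooth muscle, stood at 10.92, 10.26 and 11.07 and Cd163l1, of the CD163 scavenger receptor family, at 7.51, 6.75 and 7.71.

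Wdr92, which helps assemble dynein motors, stood at 10.21, 9.56 and 10.38, but its second, dim probe read 6.73, 6.56 and 6.51. Rpp25, a subunit of RNase P, stood at 7.99, 7.39 and 8.19. Ier3, a stress response gene, stood at 9.0, 8.08 and 8.67. Of 22 measured immediate early genes, Ier3 alone was at least 1.5-fold lower on HFD-Vehicle than on LFD-Vehicle, while 8 were at least 1.5-fold higher. Of all genes, 6.4% were at least 1.5-fold lower and 9.19% higher. All 10 low genes were detected on all 3 arrays.

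How close HFD-Rapamycin lay to LFD-Vehicle varied, and the rule fixes only part of it. Over all genes, 26.3% were at least 1.5-fold apart between HFD-Rapamycin and LFD-Vehicle (13.7% higher and 12.6% lower on HFD-Rapamycin). Of the 64 high genes, 46 lay within 1.5-fold of LFD-Vehicle on HFD-Rapamycin, 15 were still at least 1.5-fold above it and 3 (Kcne1l, H2ac19 and Mme) were at least 1.5-fold below it. On the log2 scale, HFD-Rapamycin lay 14.5% to 230.1% of the way back to LFD-Vehicle for the high genes, with a median of 86.9%. The genes still above LFD-Vehicle were Tph2, Fgf13, Sfrp5, Mest, Lipf, Pvalb, Kcnj14, Bcat1, Crtac1, C730029A08Rik, Grb14, Paqr9, Ccdc3, Bcar3 and Dpt. All 10 low genes lay within 1.5-fold of LFD-Vehicle, 7 of them above it, with a median return of 122.2% on the log2 scale. At 2-fold in both comparisons 8 high genes detected on all 3 arrays and no low gene remained: Alas2, C130026I21Rik, Lipf, Apol11b, Slc4a1, Mest, Tfr2 and Gldc. The measured values of Il13ra2 also passed 2-fold, but its bounds did not.

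**Figure D4:**
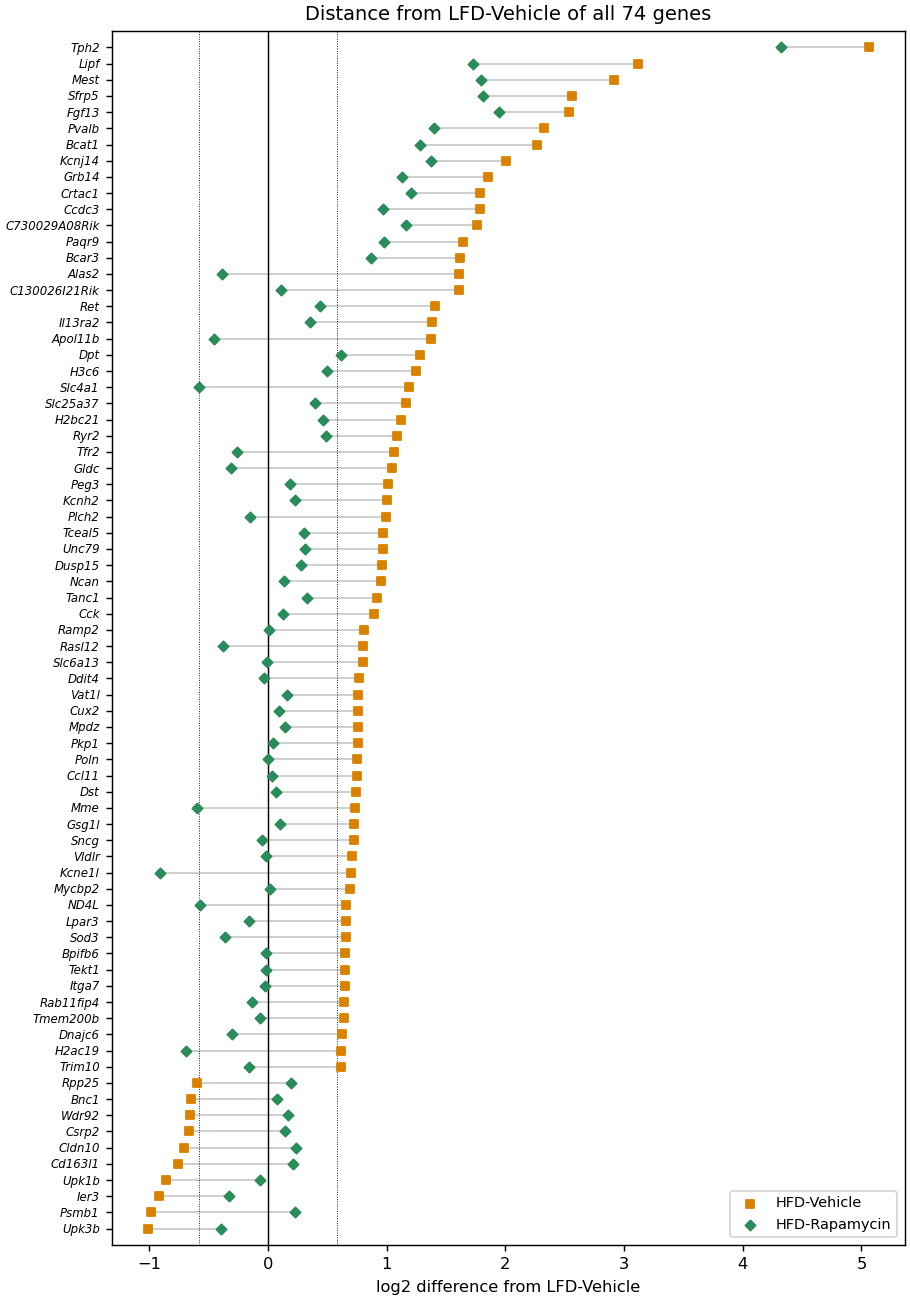
All 74 genes are shown with their log2 difference from LFD-Vehicle on HFD-Vehicle (orange squares) and HFD-Rapamycin (green diamonds), ordered by the diet difference, with dotted lines at 1.5-fold either side of 0. The genes with the largest diet differences, from Tph2 at 5.06 down to Bcar3 at 1.62, stay right of the dotted line with rapamycin, and most others lie near 0.

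Part of the set rests on low signals or narrow margins. On LFD-Vehicle 49 of the 64 high genes were detected, on HFD-Vehicle all 64 and on HFD-Rapamycin 57. With undetected values at the lowest detected value of their array 59 passed, and Trim10, Cck, Bpifb6, Gsg1l and Lpar3 did not. Each of the genes that failed was detected on HFD-Vehicle alone. Several detected probes were available for 22 high genes, and in 20 of these every detected probe ran the same way in both comparisons, and in 12 every one passed both thresholds. For the low genes this was 3, 2 and 1. The members just inside the threshold were Crtac1, Fgf13 and Tanc1, whose smaller differences were 0.587, 0.589 and 0.591, and just outside were Ffar2, Clstn3 and Myl4, at 0.582, 0.576 and 0.573. On the low side Ier3, Rpp25 and Upk3b lay just inside, at 0.591, 0.598 and 0.608, and Ptgis, Wfdc1 and Pkhd1l1 just outside, at 0.577, 0.568 and 0.566.

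**Figure D5:**
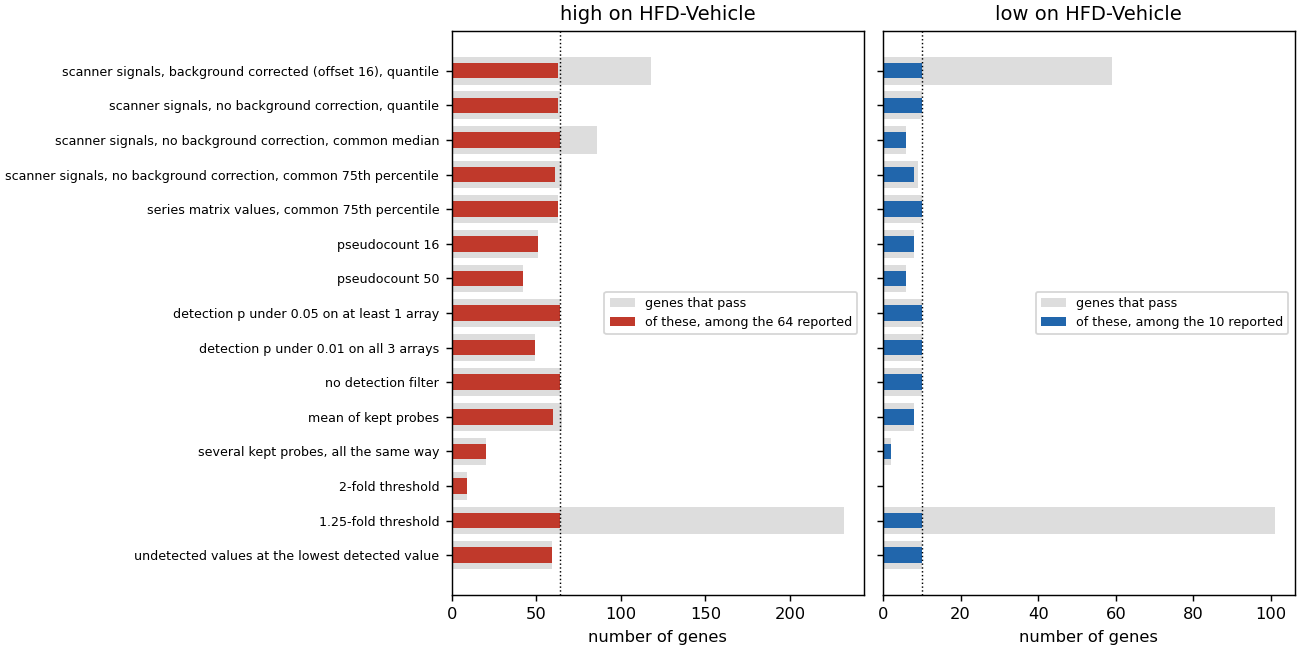
Grey bars count the genes that pass both thresholds under each of 15 other ways of processing, and coloured bars those among the genes reported here, for genes high (left) and low (right) on HFD-Vehicle. The dotted lines mark 64 and 10, and background correction or a threshold lowered to 0.32 on the log2 scale adds many genes while a 2-fold threshold leaves 9 and 0.

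19 of the 74 genes belong to the gene lists written for cell types and pathways of fat. The lists hold 809 measured genes, and members made up 0.698% of all 10603. Earlier results of these data were known when the lists were written. No gene of the macrophage, T cell or fatty acid synthesis lists was a member. These hold 17, 11 and 19 measured genes, so few that no member is likely at a share of 0.698% of all genes. Other marker groups differed between the pools. Of the 18 measured Hox genes 16 were lower on HFD-Vehicle than on LFD-Vehicle, while Hoxc10, set aside by name, stood at 6.37, 8.47 and 6.59 and En1, also set aside, at 6.40, 7.27 and 6.64, neither detected on LFD-Vehicle. Both genes mark body position, and a difference in where the fat was sampled was not tested. Of 3 measured genes of the Y chromosome, Eif2s3y stood at 9.59, 10.05 and 9.67, Uty at 6.65, 6.87 and 6.69, and Kdm5d at 7.53, 7.44 and 7.45. None reached 1.5-fold in either comparison, and the part of the sexes of the pools in the levels of the members was not tested.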

How the data were processed

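The authors deposited the signal intensity of 45281 probes per array as scanned with GenomeStudio, not normalized, with a detection p-value for each. A second deposited table holds the authors' normalized intensities on a linear scale, which keep the rank order of the scanner signals and have near-equal medians (74.3, 74.2 and 74.1). The normalization is not given in the sources used here, and dim values flatten near a floor, which shrinks their fold changes. These values were used on the log2 scale. Of the probes, 34885 had 1 gene in the platform annotation, 18 several and 10378 are unnamed here. 18954 probes passed the detection filter, and 3941 of the 10603 genes had several.

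With 1 array of pooled RNA per group no test was possible, and precision is limited by there being 3 arrays. The members and gene lists (52 lists, 1109 genes, 809 measured) were chosen with earlier results of these data known. Genes were named by a rule of size, list membership and distance from the threshold, and the remaining members were named to account for all. Roles were grouped after the values were seen. Where a gene was undetected on the array with the lower value, its fold is a bound ("at least") set against the lowest detected value of that array. Promoters came from RefSeq for 53 of 74 members. Selection steps were tested on simulated data. Alternatives used limma 3.58.1 in R 4.3.3. Tables used Python 3.11.15, numpy 2.4.6 and pandas 2.3.3, and figures matplotlib 3.10.9.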

Additional observations from a re-analysis of the deposited data

How the results depend on the processing

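Under each of the 15 alternatives, every one of the 74 genes that had a value (59 with detection on all 3 arrays, 22 with several kept probes that all ran the same way, otherwise all 74) kept the direction of both differences. A changed threshold or detection filter leaves a probe's values as they are, and requiring agreement admits only genes whose probes agree. Such settings could hardly turn a direction, and all 15 use the same 3 arrays. The counts depended on how dim values were treated and on the threshold. With scanner signals corrected for background, 118 genes were high on HFD-Vehicle and 59 low, among them 63 of the 64 and all 10 reported here, 32 belonged to the gene lists and 131 lay within 1.5-fold of LFD-Vehicle, against 19 and 56 as reported. With a pseudocount of 50 the counts were 42 high and 6 low, with 35 near LFD-Vehicle, and with arrays brought to a common median 6 were low. Requiring several kept probes that all ran the same way left 20 high and 2 low genes, with 7 in lists and 17 near LFD-Vehicle. A 2-fold threshold left 9 and 0, with 4 in lists and 7 near LFD-Vehicle, and a threshold lowered to 0.32 on the log2 scale gave 232 and 101, with 61 and 286. Over the other alternatives the high count lay between 49 and 86 and the low count between 8 and 10. C130026I21Rik, Gldc, Mest and Tfr2 passed under all 15. A gene with 1 kept probe cannot pass the setting that requires several, so it cannot reach 15. Alas2, Lipf, Apol11b and Slc4a1 have 1 kept probe each and passed under 14. For these counts, the cause was not tested beyond the construction of each alternative. No paired analysis was possible because each group has 1 array. Dim genes are limited by signal over background, since 15 of the 64 high genes were not detected on LFD-Vehicle.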
